A study of Mus musculus with 4 samples.

Results

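The CD8 T cells that the authors placed in their cluster 5 were described by their open chromatin. Members were the cells whose deposited annotation gives the CD8 set and cluster number 5, which were 189 cells after alloBMT with PT-Cy and 30 cells after alloBMT alone, or 219 of the 2377 CD8 cells and of 3587 T cells in all. The cells were T cells sorted from marrow on day 14 after allogeneic transplantation (alloBMT). Donors were C3H.SW mice and recipients C57Bl/6 mice, and the graft held 5000000 marrow cells, 500000 CD4 cells and 500000 CD8 cells. The PT-Cy (post-transplant cyclophosphamide) group also had cyclophosphamide, which is toxic to proliferating cells, at 50 mg/kg on day 3 and again on day 4, and the alloBMT group did not. Both groups thus carry the same transplant, and the labels name no gene change in donors or recipients. Each group was 1 pool of 4 mice, read as 1 multiome library in which RNA and accessible DNA come from the same nuclei. The RNA counts used here hold 1210 CD4 cells and 0 CD8 cells, so only accessibility and the deposited scores per cell are described.

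A CD8 T cell kills target cells with perforin and granzymes that it releases onto them. The choice between the CD4 and CD8 lineages is held by opposing transcription factors, ThPOK (gene Zbtb7b) on the CD4 side and RUNX3 on the CD8 side, and the Cd8a and Cd8b1 genes lie side by side under shared enhancers. Under lasting antigen, CD8 T cells can pass from a stem-like state marked by TCF-1 (gene Tcf7) to an exhausted state marked by TOX and inhibitory receptors, and a transplant with donor T cells exposes those cells to such antigen. Accessibility, the count of DNA cuts by a transposase in a peak, shows where chromatin is open and is not a measure of transcript level.

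Each group is 1 library, so no difference has a replicate check, and values are given without tests or p-values. Cluster 5 was made by the authors from these same cells, so each comparison with other clusters is a description. Counts were summed over the cells of a set and scaled by the set's total counts in peaks (CPM). A locus here is a gene with its peaks inside it or within 2 kb. Ratios are on the log2 scale, and the interval in brackets is the exact conditional binomial 95% interval, which covers counting error only. In such sums, fewer cells with a site open and less signal per cell cannot be told apart. Cluster 5 held 822676 ATAC counts in PT-Cy and 265055 in alloBMT, and the other CD8 cells held 2295196 in PT-Cy and 16340875 in alloBMT. Its PT-Cy cells were shallow, with a median of 3483 ATAC counts a cell against 5944 in the other PT-Cy CD8 cells, and its alloBMT cells had a median of 6259 against 7855. A median of 56.3% of fragments fell in peaks in PT-Cy cluster 5 and 59.9% in the other PT-Cy CD8 cells, with 6.57% and 5.94% mitochondrial RNA. Of all barcodes, 2 were shared by the libraries, none of them in cluster 5.

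Cluster 5 was the most frequent CD8 cluster of the PT-Cy library and the least frequent of the alloBMT library. It took 189 of 512 CD8 cells after PT-Cy, or 36.9% (exact binomial 95% interval 32.7 to 41.3), and 30 of 1865 after alloBMT, or 1.61% (1.09 to 2.29). Of its 219 cells, 86.3% (exact binomial 95% interval 81 to 90.6) were PT-Cy cells. Beside it, PT-Cy CD8 cells were mostly in cluster 2 (170 cells) and cluster 6 (121 cells), with 23 cells in cluster 1, 7 in cluster 4 and 1 each in clusters 3 and 7. The alloBMT CD8 cells were spread over 8 clusters, with cluster 0 (506 cells), which held 0 PT-Cy cells, the most frequent. A cluster that is nearly all from 1 library may be that library, and with 1 library a group the treatment and the library cannot be told apart.

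**Figure D1:**
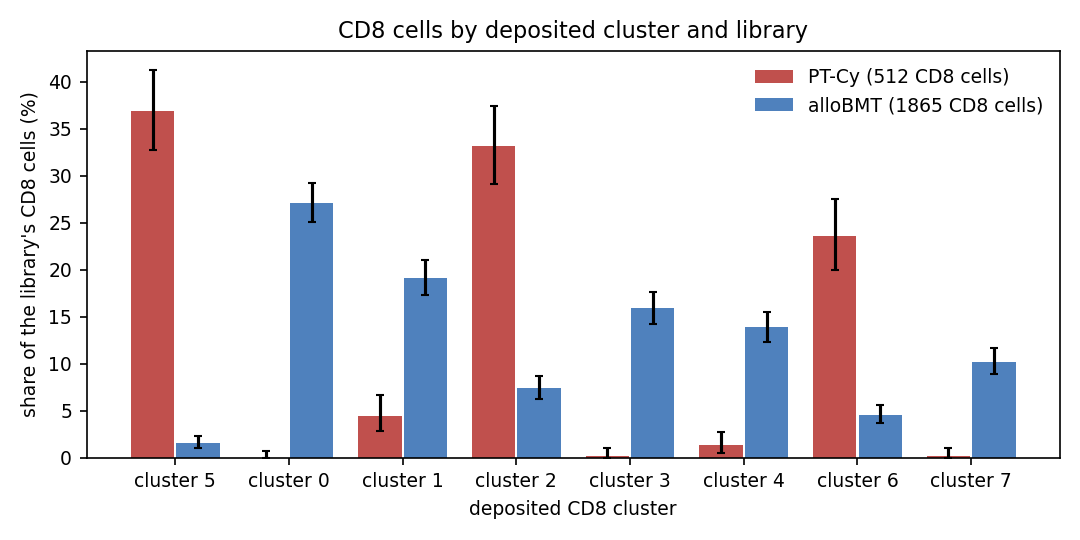
Share of each library's CD8 cells in every deposited CD8 cluster (y axis, percent), for PT-Cy (red) and alloBMT (blue); bars are shares and lines are exact binomial 95% intervals. Cluster 5 stands at 36.9% in PT-Cy and 1.61% in alloBMT.

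The CD8 label was checked against the region of Cd8a and Cd8b1 on chromosome 6, which code for the 2 chains of the CD8 coreceptor. The 26 peaks of this region, the genes with 15 kb on each side, summed to 226 CPM (195 to 261, 186 counts) in PT-Cy cluster 5. They summed to 303 CPM in PT-Cy cluster 2, 287 CPM in PT-Cy cluster 6 and 296 CPM (679 counts) over all other PT-Cy CD8 cells, and to 108 CPM in the PT-Cy CD4 set. Cluster 5 thus lay over the CD4 set, by a log2 ratio of 1.07 (0.76 to 1.38), and under the other CD8 cells, by -0.39 (-0.63 to -0.15). In the alloBMT library the region held 241 CPM (186 to 308, 64 counts) in cluster 5, against 291 CPM in the other CD8 cells and 57.2 CPM in the CD4 set. That difference from the other CD8 cells was within counting error with total-count scaling (-0.27, -0.65 to 0.09) and past it with TMM factors from all peaks (-0.75, -1.13 to -0.39). It was -0.32 with TMM factors from peaks with at least 50 counts. A count in the region was found in 102 of 189 PT-Cy cluster 5 cells and 249 of the other 323 PT-Cy CD8 cells, whose depth was higher, and in 96 of 284 PT-Cy CD4 cells.

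Within the region, Cd8b1, the gene of the beta chain, was less open in PT-Cy cluster 5. Its locus had 32 counts (38.9 CPM) in PT-Cy cluster 5, 83.3 CPM in cluster 2, 69.1 CPM in cluster 6 and 174 counts (75.8 CPM) over all other PT-Cy CD8 cells, with 16.2 CPM in the PT-Cy CD4 set. The ratio to the other CD8 cells was -0.96 (-1.55 to -0.41). Cd8a, the gene of the alpha chain, had 18 counts in PT-Cy cluster 5 against 69 in the other PT-Cy CD8 cells, a ratio of -0.46 whose interval reached past 0 (-1.29 to 0.31). The peak at chr6:71321712-71323019 had 19 counts in cluster 5 (23.1 CPM) against 104 (45.3 CPM) in the other PT-Cy CD8 cells, a ratio of -0.97 (-1.76 to -0.26). In alloBMT, Cd8b1 was at 52.8 CPM in cluster 5 and 58.1 CPM in the other CD8 cells (-0.14, -1.01 to 0.62), where cluster 5 held 14 counts, so a difference of the PT-Cy size was not detectable at this depth. The CD3 genes, which every T cell uses, did not set cluster 5 apart, with 244 CPM against 234 CPM in PT-Cy.

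Cd4, the coreceptor of helper T cells, and Zbtb7b were summed as a pair of CD4-side genes, which was more open in PT-Cy cluster 5 than in cluster 2. The pair had 153 CPM (128 to 182, 126 counts) in PT-Cy cluster 5, 93.8 CPM in cluster 2, 137 CPM in cluster 6 and 111 CPM in all other PT-Cy CD8 cells, with 177 CPM in the CD4 set. Against cluster 2 the ratio was 0.71 (0.34 to 1.07), and against cluster 6 it was within counting error (0.16, -0.23 to 0.55). Against all other PT-Cy CD8 cells it was 0.47 (0.15 to 0.78), and with TMM factors from all peaks 0.26, with an interval that held 0 (-0.06 to 0.57). Zbtb7b alone had 79 counts against 158 (0.48, 0.07 to 0.88) and Cd4 alone 47 against 96 (0.45, -0.09 to 0.97). The alloBMT cells of cluster 5 had 117 CPM at the pair of genes against 110 CPM in the other alloBMT CD8 cells. Cd4 alone was at 45.3 CPM (23.4 to 79.1, 12 counts) in alloBMT cluster 5. It was at 44.7 CPM in the other alloBMT CD8 cells and at 93.5 CPM (86.4 to 101) in the alloBMT CD4 set.

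**Figure D2:**
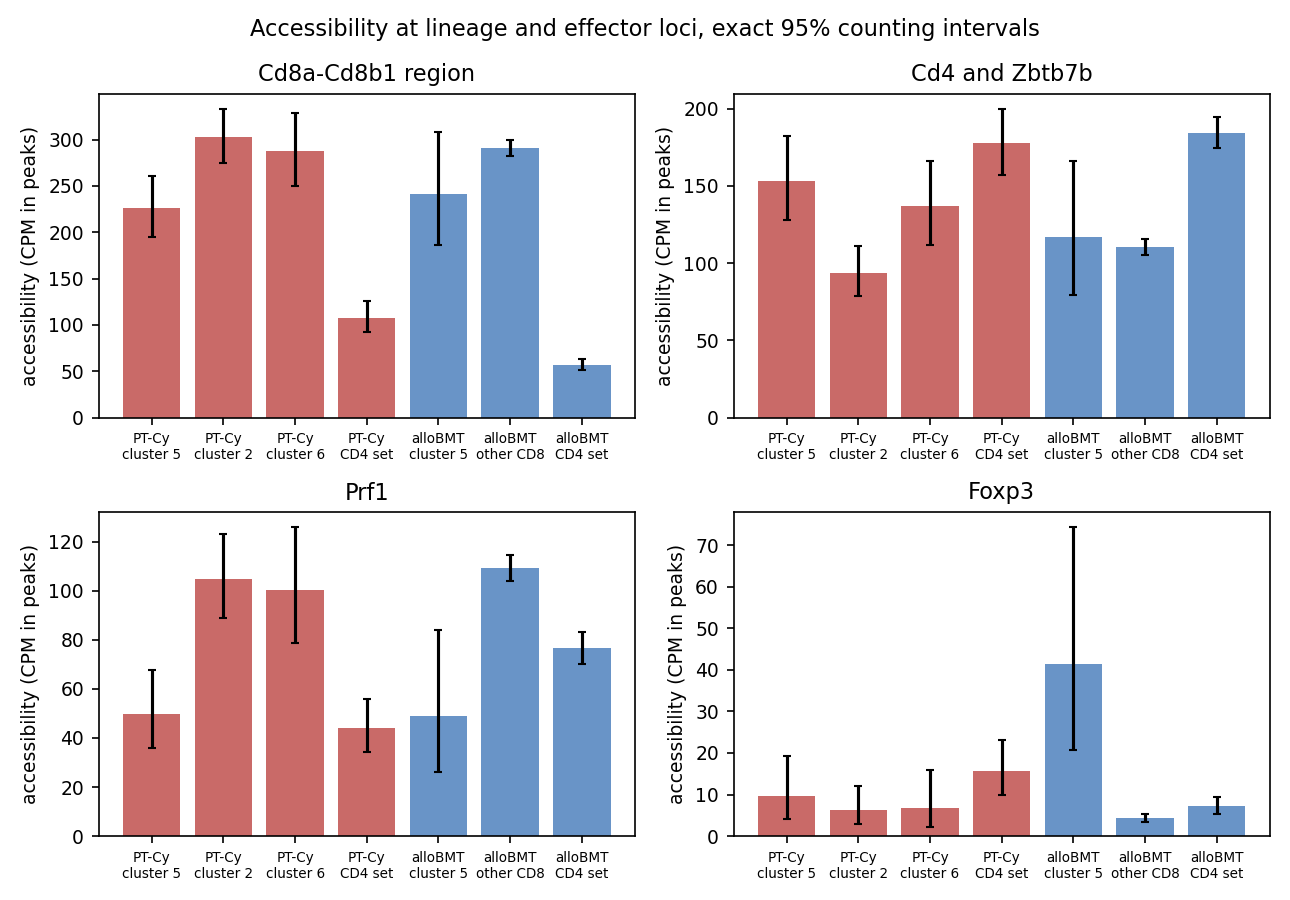
Accessibility in CPM (y axes, from 0) at the Cd8a-Cd8b1 region, at Cd4 and Zbtb7b together, at Prf1 and at Foxp3, in cluster 5, clusters 2 and 6 and the CD4 set of PT-Cy (red) and in cluster 5, the other CD8 cells and the CD4 set of alloBMT (blue); bars are summed values and lines exact 95% counting intervals. Cluster 5 has 49.8 CPM at Prf1 in PT-Cy and 49.0 CPM in alloBMT, and 41.5 CPM at Foxp3 in alloBMT.

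The same question was put to all peaks that separate the lineages. Peaks were taken from the alloBMT library, where 496 were over 1.5-fold more open in CD4 than in CD8 cells without cluster 5, by their interval, and 775 were over 1.5-fold less open. Neither the cluster 5 cells nor any PT-Cy cell took part in that choice, and the share of counts that falls on the CD4 side does not depend on scaling. In PT-Cy cluster 5 the CD4 side took 41.6% of the counts at these peaks (40.5 to 42.7). It took 33.3% in PT-Cy cluster 2, 40.0% (38.8 to 41.2) in cluster 6, 35.2% over all other PT-Cy CD8 cells, and 58.6% and 70.6% in the PT-Cy CD4 clusters 2 and 4. Cluster 5 thus lay above cluster 2 beyond counting error, and its interval met that of cluster 6.

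In alloBMT the position of cluster 5 was further out. Its 30 cells had 51.7% of the counts on the CD4 side (49.8 to 53.7), against 16.9% to 29.9% in the other 7 alloBMT CD8 clusters and 48.9% to 72.2% in the 5 alloBMT CD4 clusters. Those other clusters were used to choose the peaks, which moves their shares apart, and cluster 5 was not. How much of its position comes from this was not tested. With that limit, the pooled share of these 30 cells, labelled CD8, lay in the range of the CD4 clusters, against the label. That rests in part on 8 deep cells with a Foxp3 count, described further on. Without them the share was 47.3% (44.8 to 49.8), an interval that held the 48.9% of the lowest CD4 cluster. Whether some of the 30 are CD4 cells under a CD8 label, or doublets, was not tested, and this bears on every alloBMT value of cluster 5. At the Cd8 region the 7 other alloBMT CD8 clusters ran from 245 to 350 CPM, against the 241 CPM of cluster 5. That value lay above the alloBMT CD4 set, as given above. At Cd4, alloBMT cluster 5 had 45.3 CPM, near the 44.7 CPM of the other alloBMT CD8 cells and below the 93.5 CPM of the CD4 set. With cells of at least 2000 ATAC counts alone, the share was 42.0% in PT-Cy and 51.7% in alloBMT cluster 5.

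**Figure D3:**
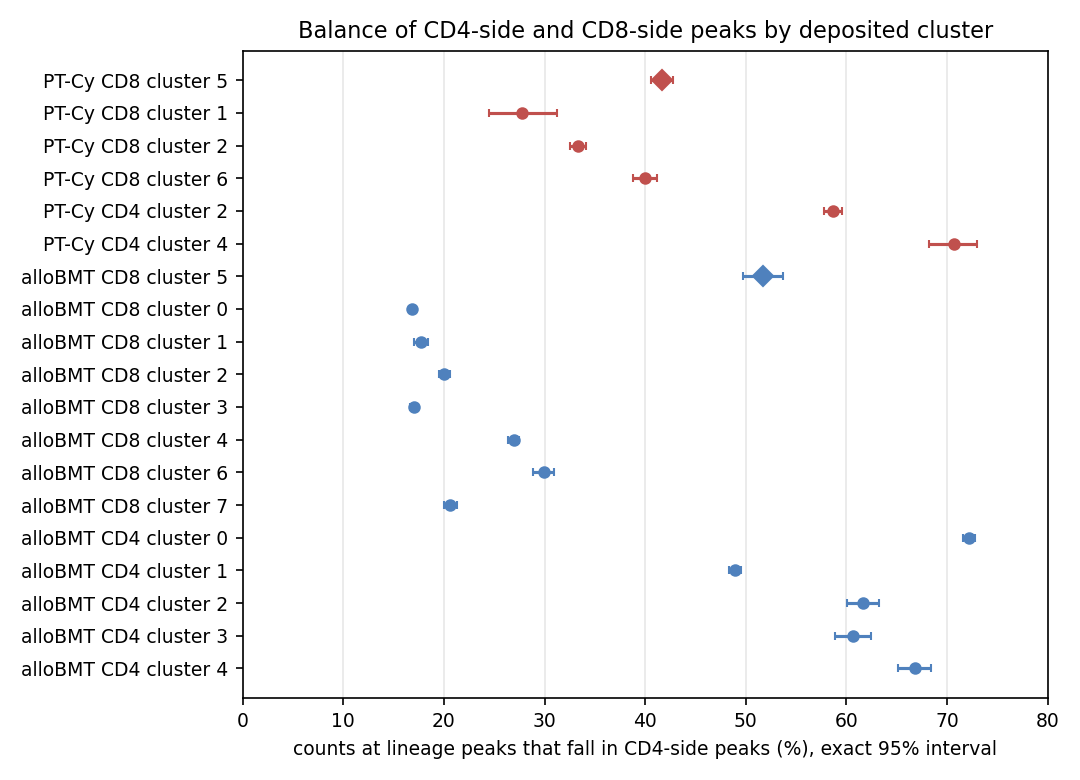
Percent of counts at 1271 lineage peaks that fall on the CD4 side (x axis) in every deposited cluster with at least 20 cells, PT-Cy (red) above alloBMT (blue); points are pooled shares, diamonds mark CD8 cluster 5 and lines are exact 95% intervals. Cluster 5 is at 41.6% in PT-Cy and 51.7% in alloBMT; the alloBMT values of the other CD8 and of the CD4 clusters were used to choose the peaks.

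Single cells of cluster 5 varied around these values. After each cell was thinned to 20 lineage counts, which left out 35 of 189 PT-Cy cells, the median share on the CD4 side was 40% in PT-Cy cluster 5, with a 10th percentile of 21.5%, a 90th percentile of 60% and an SD of 14.9 points. The SD was 13.4 points in PT-Cy cluster 6, whose median was also 40%, and 11.9 points in PT-Cy cluster 2, with a median of 30%. Before thinning the medians were 41.5% in cluster 5, 41.2% in cluster 6 and 31.8% in cluster 2. The PT-Cy cells of cluster 5 were thus centred between the CD8 cluster 2 and the CD4 cells, whose largest cluster had a median of 60%. In alloBMT cluster 5, 26 cells kept enough counts, with a median of 45% and an SD of 19.3 points, against 20% in the other alloBMT CD8 cells.

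Prf1, the gene of perforin, the pore-forming protein of killer cells, was the effector locus farthest below the other CD8 cells in PT-Cy cluster 5, and it was low in alloBMT cluster 5 too. It had 41 counts in PT-Cy cluster 5 (49.8 CPM), 105 CPM in cluster 2, 100 CPM in cluster 6 and 233 counts over all other PT-Cy CD8 cells (102 CPM), while the PT-Cy CD4 set had 44.2 CPM. The ratio to the other PT-Cy CD8 cells was -1.03 (-1.54 to -0.54). Over all alternatives it ran from -1.32 to -0.85. The alloBMT cells, which share none with these, gave 13 counts in cluster 5 (49.0 CPM) against 1785 in the other CD8 cells (109 CPM), a ratio of -1.16 (-2.07 to -0.38). No other alloBMT CD8 cluster was under 80.6 CPM. Against the PT-Cy CD4 set, PT-Cy cluster 5 did not differ beyond counting error (0.17, -0.42 to 0.75), and the alloBMT CD4 set was at 76.6 CPM. Between the libraries, inside the cluster, Prf1 did not differ beyond counting error (0.02, -0.91 to 1.05).

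Most of the Prf1 difference came from the peak over its promoter at chr10:61296099-61298096. It had 23 counts in PT-Cy cluster 5 (28.0 CPM), 79.1 CPM in cluster 2, 58.3 CPM in cluster 6 and 160 counts in all other PT-Cy CD8 cells (69.7 CPM), a ratio of -1.32 (-2.02 to -0.68), with 23.4 CPM in the PT-Cy CD4 set. In alloBMT it had 7 counts (26.4 CPM) in cluster 5 against 944 (57.8 CPM) in the other CD8 cells. A promoter that was more open, that of Tc2n, a gene for a protein with tandem C2 domains, is shown beside it. Its peak at chr12:101717816-101719073 had 32 counts in PT-Cy cluster 5 (38.9 CPM) against 35 in the other PT-Cy CD8 cells (15.2 CPM), a ratio of 1.35 (0.61 to 2.08), and 26.4 CPM against 21.7 CPM in alloBMT. The RefSeq promoters of the pair (GRCm38.p6, 250 bases before to 50 after the start, Prf1 at chr10:61297586-61297885 on the plus strand and Tc2n at chr12:101718474-101718773 on the minus strand) are printed because their peaks moved in opposite directions. Capitals mark matches on either strand to RUNX (TGTGGT), ETS (CCGGAAG), T-box (TCACACC) and TCF/LEF (CTTTGA) letters.
Prf1: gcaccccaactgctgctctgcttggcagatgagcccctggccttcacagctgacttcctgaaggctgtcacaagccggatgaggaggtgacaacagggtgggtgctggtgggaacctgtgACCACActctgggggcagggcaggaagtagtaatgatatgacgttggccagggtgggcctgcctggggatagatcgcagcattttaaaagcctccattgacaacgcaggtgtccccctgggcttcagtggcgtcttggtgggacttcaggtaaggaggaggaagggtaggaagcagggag
Tc2n: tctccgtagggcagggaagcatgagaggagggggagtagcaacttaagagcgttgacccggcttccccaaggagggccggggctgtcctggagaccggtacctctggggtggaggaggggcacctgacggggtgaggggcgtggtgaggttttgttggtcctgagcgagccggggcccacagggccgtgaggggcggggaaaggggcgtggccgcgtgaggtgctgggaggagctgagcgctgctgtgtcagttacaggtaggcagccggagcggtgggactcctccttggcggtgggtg
Prf1 held 1 RUNX match and none of the other 3 motifs, and Tc2n held none of the 4. RUNX letters were in 11.5% of the 9793 promoters of all measured loci, so a match is common and is a description only. No promoter was printed for Cd8b1.

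The rest of the effector list was mixed. Of 26 measured effector genes, 0 were more open and 4 less open by at least 1.5-fold in PT-Cy cluster 5 than in the other PT-Cy CD8 cells, against 5.12% more open and 4.02% less open among all 14320 loci with at least 20 counts. The 4 were Prf1, Id2, Xcl1 and Klrd1, and the list median was -0.14 against -0.01 over all those loci. Id2, a repressor of E proteins that CD8 effector cells need, had 50 counts against 218 (-0.64, -1.12 to -0.19). Xcl1, a chemokine that draws dendritic cells, had 10 counts against 45, and Klrd1, the CD94 receptor chain, 8 against 35, and both intervals held 0. Gzmb, a granzyme, had 34 counts against 140 (-0.56, -1.15 to -0.01). Gzma, Gzmk and Ifng were at -0.04, -0.08 and 0.00, and Gzmb lay lowest against cluster 2, at -0.83 (-1.43 to -0.26).

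In the alloBMT cells, with other cells on both sides, 0 of 26 effector loci were 1.5-fold more open in cluster 5 and 8 were 1.5-fold less open, where 12.1% and 18.8% of all 16258 loci with at least 20 counts were. The list median was -0.38 against -0.04 over all those loci. Of 14297 loci with at least 100 counts 9.04% passed 1.5-fold upward and 15.2% downward, and of 48864 peaks with at least 50 counts 9.79% and 24.3% passed 2-fold, on the small total of the 30 cells. Beside Prf1, the intervals of Fasl, a death ligand (6 counts against 1021, -1.46, -2.91 to -0.34), and of Nkg7, a protein of killer granules (18 against 1866, -0.75, -1.51 to -0.09), left out 0. Runx3, the CD8 lineage factor, had 215 CPM in alloBMT cluster 5 against 327 CPM in the other alloBMT CD8 cells (-0.60, -1.01 to -0.23), and in PT-Cy it did not set cluster 5 apart (0.02). TMM factors from all peaks shifted every alloBMT ratio of this kind by -0.48, which makes these values lower still. TMM factors from peaks with at least 50 counts shifted these ratios by -0.05.

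Over all loci the differences of PT-Cy cluster 5 from the other PT-Cy CD8 cells were few. Of 10480 loci with at least 100 counts, 88 passed 1.5-fold as more open (0.840%) and 195 as less open (1.86%), with a median ratio of -0.03. The balance of directions depended on the scaling. TMM factors from all peaks, which shifted every ratio by -0.21, gave 10 more open and 854 less open, and TMM factors from peaks with at least 50 counts, which shifted it by 0.06, gave 143 and 133. So the values of single loci below are read relative to a median locus near 0.

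Arhgap31, which codes for a GTPase-activating protein of the Cdc42 and Rac switches, had the highest lower bound among loci more open in cluster 5. It had 103 counts in PT-Cy cluster 5 (125 CPM), 70.7 CPM in cluster 2, 54.2 CPM in cluster 6 and 149 counts in all other PT-Cy CD8 cells (64.9 CPM), a ratio of 0.95 (0.57 to 1.32). The PT-Cy CD4 set was at 117 CPM, close to cluster 5. In alloBMT the Arhgap31 locus had 31 counts (117 CPM) in cluster 5 against 911 (55.7 CPM) in the other CD8 cells, a ratio of 1.07 (0.50 to 1.58). The alloBMT CD4 set was at 70.7 CPM (64.6 to 77.2), below alloBMT cluster 5 (79.5 to 166). Mast4, a microtubule-associated kinase, was also more open in cluster 5, with 69.3 CPM in PT-Cy cluster 5 against 35.7 CPM (0.96, 0.44 to 1.46), 72.8 CPM in the PT-Cy CD4 set, and 90.5 CPM in alloBMT cluster 5 against 46.9 CPM (0.95, 0.30 to 1.53). With total-count scaling, these were the pair of the 12 most secure loci whose interval left out 0 in both libraries. With TMM factors from all peaks, the alloBMT ratio was 0.59 (0.02 to 1.11) for Arhgap31 and 0.47 for Mast4, whose interval then held 0 (-0.18 to 1.06). TMM factors from peaks with at least 50 counts shifted both ratios by -0.05. Msrb3, a methionine sulfoxide reductase, was at 71.7 CPM against 37.5 CPM in PT-Cy (0.94) and 71.7 CPM against 43.6 CPM in alloBMT (0.72, -0.02 to 1.37). Rgs9, a brake on G protein signals, was at 123 CPM against 75.8 CPM in PT-Cy (0.70) and 109 CPM against 73.7 CPM in alloBMT (0.57, -0.02 to 1.10).

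A further 7 loci of that set were Map3k20, a stress-activated kinase (1.03), Anks1b (0.99), Mrs2, the mitochondrial magnesium channel (0.86), Zfp692 (0.84), Paqr5, a membrane progestin receptor (0.77), Ints3, an Integrator subunit (0.72), and Klf12, a repressor of the Krüppel-like family (0.70). In alloBMT the intervals of these 7 all held 0, on few counts. Paqr5 rested on its gene body, since peaks at its promoter alone gave -0.33. The less open loci with the most secure values, after Prf1 and Cd8b1, included Camkk1, a kinase that activates AMPK (59.6 CPM against 104 CPM, -0.81), Clic1, an intracellular chloride channel (63.2 CPM against 106 CPM, -0.75), Lsm12 (31.6 CPM against 61.0 CPM, -0.95), Atp5g2, a subunit of the mitochondrial ATP synthase (-0.88), Senp2, a SUMO protease (-0.86), and Hnrnpk, an RNA-binding protein that shares peaks with Rmi1 (74 counts against 330, -0.68). Apart from Prf1, the alloBMT interval of each of the 12 less open loci held 0.

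**Figure D4:**
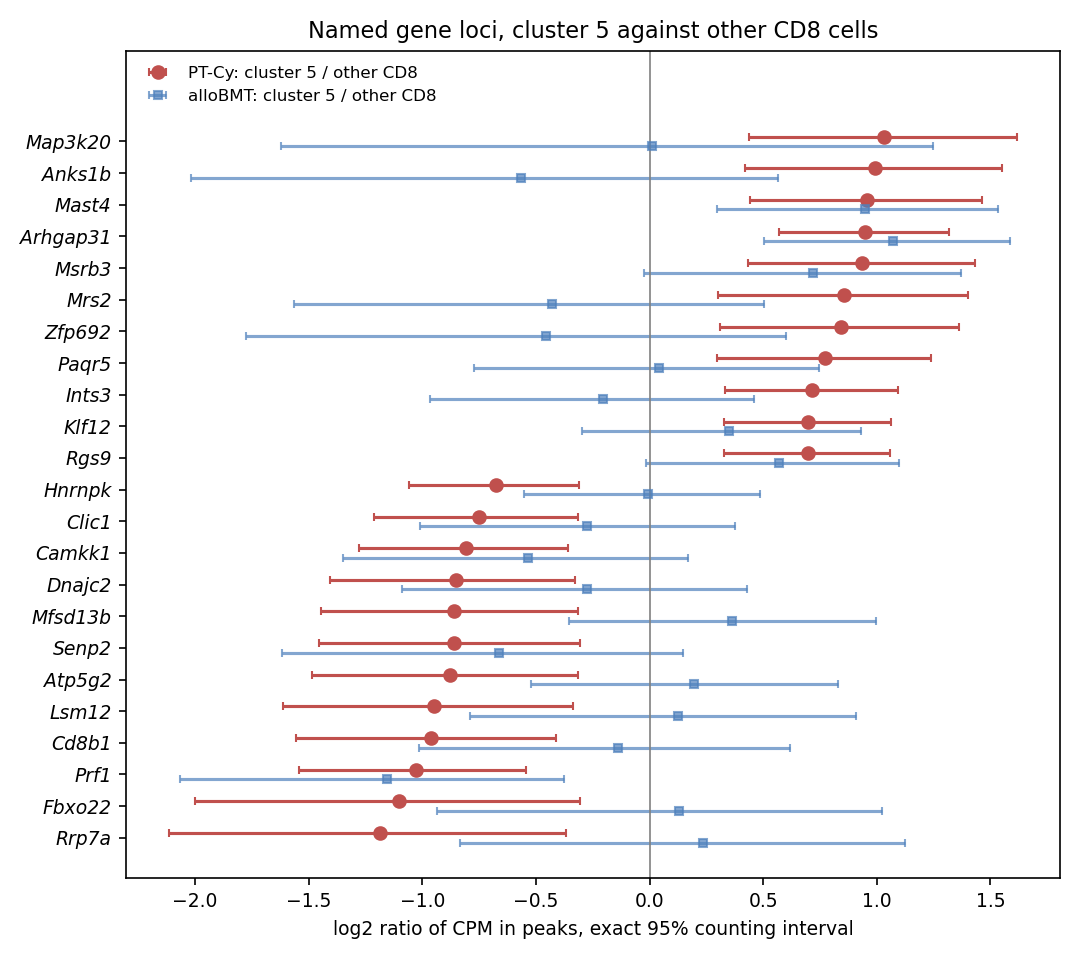
Log2 ratio of CPM (x axis) of cluster 5 to the other CD8 cells at the loci with the highest lower bounds and the lowest upper bounds in PT-Cy that are reported here, for PT-Cy (red circles) and alloBMT (blue squares); lines are exact 95% counting intervals. Arhgap31, Mast4 and Prf1 are the 3 whose interval lies off 0 on the same side in both libraries with total-count scaling.

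Across the whole set of called loci, the alloBMT cells added little. Of the 88 loci more open in PT-Cy cluster 5, 48 had a ratio above 0 in alloBMT (54.5%, against 47.1% of all measured loci), and of the 195 less open, 98 had one below 0 (50.3%, against 52.9%). Pooled, the 88 loci had an alloBMT ratio of 0.14 and the 195 one of -0.01. The alloBMT values rest on 1130 and 2677 counts in cluster 5.

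Single peaks gave a similar picture. PT-Cy cluster 5 was 2-fold or more above the other PT-Cy CD8 cells at 43 of the 16616 peaks that held 50 counts or more (0.259%), and 2-fold or more below them at 162 (0.975%). The interval lay above 0 at 291 of the 16616 peaks and below 0 at 580, which includes peaks that pass by counting error alone. Called peaks of both directions lay less at promoters than the 46.7% of all measured peaks, with 6 of the 43 more open (14.0%) and 42 of the 162 less open (25.9%). Between genes lay 17 of the more open (39.5%) and 53 of the less open (32.7%), against 18.8% of all. These shares were not matched for the counts that peaks held. With a minimum of 100 counts, 1 peak was called more open and 25 less open. Among the most secure was a peak inside Rora, a nuclear receptor gene, at chr9:69299771-69300607, with 28 counts in PT-Cy cluster 5 and 28 in the other PT-Cy CD8 cells (34.0 against 12.2 CPM, 1.48, 0.67 to 2.29). In alloBMT the Rora peak was lower in cluster 5, at 11.3 CPM (3 counts) against 16.1 CPM in the other CD8 cells. Another, 26.2 kb from Icos, a costimulatory receptor, at chr1:61026482-61027851, had 26 against 28 counts in PT-Cy (1.37, 0.55 to 2.20), and 37.7 CPM in alloBMT cluster 5 against 7.71 CPM in the other alloBMT CD8 cells. Il18r1, a chain of the interleukin-18 receptor, held a peak at chr1:40475441-40476132 with 30 against 38 counts (1.14, 0.40 to 1.87), while its whole locus was at 0.37 (-0.01 to 0.73). Of the 43 peaks more open in PT-Cy, 19 had a ratio above 0 in alloBMT (44.2%, against 46.6% of all measured peaks), with a pooled ratio of -0.02. Of the 162 less open, 97 had one below 0 (59.9%, against 53.4%), with a pooled ratio of -0.10.

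Less open peaks included 1 at chr4:32343237-32344568 inside Bach2, a repressor that keeps T cells in a resting memory state, with 7 counts in PT-Cy cluster 5 against 59 in the other PT-Cy CD8 cells (-1.60, -2.97 to -0.46). By cluster it was at 8.51 CPM in cluster 5, 14.7 CPM in cluster 2 and 51.5 CPM in cluster 6. Its locus as a whole was level, at 489 CPM in cluster 5 and 495 CPM in the other PT-Cy CD8 cells. Peaks at Maml2, a Notch coactivator (3 against 48 counts, -2.52), at the promoter of Adcy7, an adenylyl cyclase (8 against 70, -1.65), at the promoter of Dpf2, a subunit of the BAF complex (15 against 110, -1.39), and within 0.92 kb of Smad3, a mediator of TGF-beta signals (12 against 93, -1.47), were lower in cluster 5 than in either cluster 2 or cluster 6. In alloBMT those 5 peaks were at 18.9, 22.6, 22.6, 37.7 and 30.2 CPM in cluster 5 against 14.6, 17.7, 32, 40.7 and 32 CPM in the other CD8 cells, on at most 10 counts each.

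Genes of the stem-like and exhausted states did not set PT-Cy cluster 5 apart from the other PT-Cy CD8 cells as a pool. Of 24 measured genes of the stem and memory list 0 were 1.5-fold more open and 0 less open, with a median of -0.06, and of 24 of the exhaustion list 1 was more open and 0 less open, with a median of -0.03, where 5.12% of all loci with at least 20 counts were more open and 4.02% less open. A count of 1 in 24 is near that background, which takes in loci of few counts. Of the 10480 loci with at least 100 counts, 0.840% were more open and 1.86% less open. The list was not matched to either group by counts. The 1 gene more open was Nt5e, the ectoenzyme CD73 (68.1 CPM against 44.0 CPM, 0.63, 0.13 to 1.11). Tcf7 was at 140 CPM in cluster 5 and 147 CPM in the others, Lef1, its partner factor, at 271 and 281 CPM, Tox at 462 and 443 CPM, and Pdcd1, the gene of PD-1, at 148 and 167 CPM. Lag3, an inhibitory receptor, was lower (42.5 CPM against 62.7 CPM, -0.56, -1.14 to -0.02). Of 8 CD8 lineage genes 1, Cd8b1, was less open and 0 more open, and 0 of 6 CD4 lineage genes passed in either direction, with a median of 0.15. Of 24 cell division genes 0 passed in either direction. These counts too are read against the 5.12% and 4.02% of all loci with at least 20 counts. At 100 counts or more the shares were 0.840% and 1.86%.

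Smaller groups of signalling genes were close to level as well. None of 20 cytokine receptors, 21 genes of T cell receptor signalling, 18 of costimulation or 19 integrin and adhesion genes passed 1.5-fold between PT-Cy cluster 5 and the other PT-Cy CD8 cells. Of 16 genes of survival and apoptosis 2 were more open and 0 less open. Over all loci with at least 20 counts, 5.12% were more open and 4.02% less open. Bmf, a BH3-only protein that promotes apoptosis, had 33 counts in PT-Cy cluster 5 against 43 (1.10, 0.40 to 1.79), and in alloBMT 6 counts in cluster 5 against 676 (-0.87, -2.32 to 0.26). Bcl2a1b, an anti-apoptotic BCL-2 relative with near-identical copies whose reads may be shared, had 30 counts against 51 in PT-Cy (0.71, 0.01 to 1.39). Igtp, an interferon-induced GTPase, had 38 counts against 62 in PT-Cy (0.77, 0.15 to 1.38), and Irf8, a transcription factor of the interferon family, 25 against 109 (-0.64, -1.33 to -0.01).

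The pool of other CD8 cells was mostly clusters 2 and 6, and cluster 5 differed from each in other genes. Of 5891 loci with at least 100 counts, 1.78% passed 1.5-fold above cluster 6 and 2.77% below it, and of 9250 peaks with at least 50 counts 0.627% and 0.573% passed 2-fold. TMM and DESeq2 factors from all peaks shifted these ratios by -0.03 and 0.16. Against cluster 6, 5 of 24 exhaustion genes were 1.5-fold more open in cluster 5 and 0 less open, with a median of 0.23, and 7 of 24 stem and memory genes were less open and 0 more open, with a median of -0.24, where 6.68% of all 13207 loci with at least 20 counts were more open and 6.58% less open. Tox, the factor that drives exhaustion, had 380 counts in cluster 5 (462 CPM) against 208 in cluster 6 (282 CPM), a ratio of 0.71 (0.47 to 0.96), with 514 CPM in cluster 2. Tox2, its paralogue, was at 173 CPM against 100 CPM (0.78, 0.37 to 1.21), Ikzf2, the factor Helios, at 243 CPM against 149 CPM (0.71, 0.36 to 1.05), and Havcr2, the receptor TIM-3, at 101 CPM against 66.4 CPM (0.60, 0.08 to 1.14). In cluster 2 Ikzf2 was at 228 CPM and Havcr2 at 115 CPM. Casp4 passed on 20 and 9 counts, with an interval that held 0.

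On the stem side, Tcf7 had 115 counts in cluster 5 (140 CPM) against 156 in cluster 6 (211 CPM), a ratio of -0.60 (-0.96 to -0.24). Il7r, the interleukin-7 receptor of long-lived T cells, had 13 counts against 31 (-1.41, -2.47 to -0.43). Ccr7, the homing receptor of lymph nodes, was at 70.5 CPM against 110 CPM (-0.64, -1.15 to -0.13), and Satb1, a chromatin organiser, at 103 CPM against 169 CPM (-0.71, -1.13 to -0.30). Nsg2, Pdlim1 and Id3 were the remaining 3. Among effector genes 4 were more open and 6 less open than in cluster 6, and Klrg1, a receptor of terminal effector cells, was among the 4 (96.0 CPM against 50.1 CPM, 0.94, 0.36 to 1.54), with Cx3cr1, Cst7 and Ccl3. In cluster 2 Klrg1 was at 102 CPM, Cx3cr1 at 83.3 CPM and Cst7 at 38.5 CPM, against 96.0, 77.8 and 55.9 CPM in cluster 5. Prf1, Id2 and Xcl1 were among the 6.

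Against cluster 2 a few stem genes were more open. Of 24, 3 were more open in cluster 5 and 0 less open, with a median of 0.09 that TMM factors from all peaks turned to -0.08, and of 24 exhaustion genes 2 were more open and 1 less open, with a median of -0.14, beside 5.60% and 4.03% of all 13782 loci with at least 20 counts. Of 8615 loci with at least 100 counts 1.03% passed 1.5-fold upward and 1.80% downward, and of 13308 peaks 0.158% and 0.902% passed 2-fold, and those TMM factors shifted these ratios by -0.17. Il7r passed on 13 and 13 counts with an interval that held 0, and Lef1 (271 CPM against 278 CPM) and Ccr7 (70.5 CPM against 70.7 CPM) were level. Satb1 was at 103 CPM against 68.6 CPM (0.59, 0.15 to 1.02) and Il6ra, the interleukin-6 receptor, at 136 CPM against 89.6 CPM (0.60, 0.22 to 0.98). Lag3 was lower (42.5 CPM against 69.3 CPM, -0.70, -1.30 to -0.13), and Top2a, a topoisomerase of dividing cells, was higher (60.8 CPM against 38.5 CPM, 0.66, 0.08 to 1.24). Both comparisons hold the same 189 cells of cluster 5. By contrast, Prf1 and Cd8b1 were lower in cluster 5 than in either neighbour, with ratios of -1.08 and -1.10 to cluster 2 and of -1.01 and -0.83 to cluster 6.

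By the authors' deposited scores per cell, cluster 5 was near cluster 2 on Tex1 and between clusters 2 and 6 on Stem_Like1. Score names are the authors', and the sources used here do not give the gene sets behind them. Stem_Like1 averaged 0.062 ± 0.090 in PT-Cy cluster 5, 0.035 ± 0.082 in cluster 2, 0.117 ± 0.124 in cluster 6 and 0.065 ± 0.107 in all other PT-Cy CD8 cells (SD over cells, n = 189, 170, 121 and 323 cells). Tex1 averaged -0.014 ± 0.023 in cluster 5, -0.012 ± 0.023 in cluster 2 and -0.036 ± 0.025 in cluster 6. Among the PT-Cy comparisons the largest gap was that of Tex1 to cluster 6, of 0.95 SD, with 85.2% of cluster 5 cells above the median of cluster 6. Against all other PT-Cy CD8 cells no score differed by more than 0.23 SD, the value of Tex1. Of the accessibility scores, Tex_Acc1 averaged 0.034 ± 0.045 in cluster 5, 0.046 ± 0.036 in cluster 2 and 0.019 ± 0.040 in cluster 6, which were differences of -0.28 SD to cluster 2 and 0.35 SD to cluster 6.

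In alloBMT, cluster 5 scored lower on exhaustion than the other CD8 cells as a pool. Tex1 averaged -0.001 ± 0.020 over its 30 cells against 0.027 ± 0.028 over 1835 others, a difference of -0.996 SD, with 10.0% of its cells above their median, and Tex_Acc1 averaged 0.023 ± 0.039 against 0.056 ± 0.039. Stem_Like1 was higher, at 0.058 ± 0.088 against -0.005 ± 0.088, a difference of 0.72 SD. These traits were not particular to cluster 5. The 86 cells of alloBMT cluster 6, part of that pool, averaged -0.009 on Tex1, 0.018 on Tex_Acc1 and 0.104 on Stem_Like1. Between libraries, inside the cluster, Stem_Like1 was alike (0.062 in PT-Cy and 0.058 in alloBMT), and Tex1 was lower by 0.57 SD in PT-Cy. The accessibility score Tex_Acc1 went the other way, at 0.034 in PT-Cy and 0.023 in alloBMT (0.25 SD). Stem_Like_Acc1 was at 0.074 in PT-Cy and 0.052 in alloBMT (0.19 SD).

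**Figure D5:**
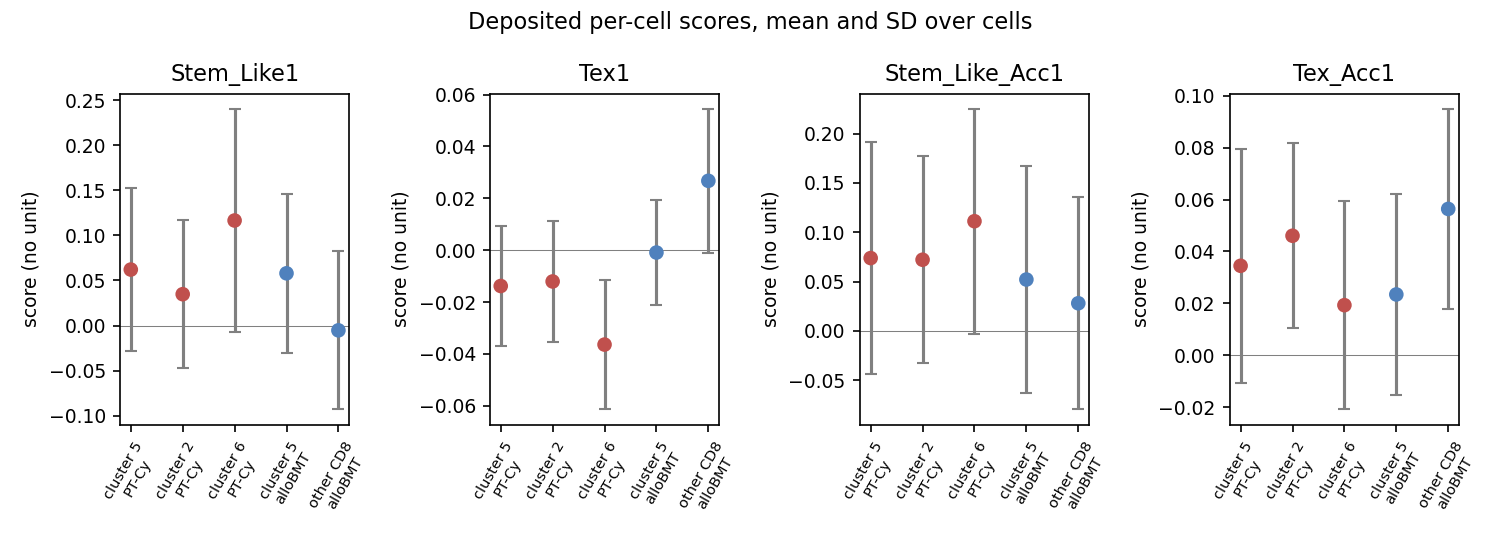
The 4 deposited scores per cell (y axes, no unit) in cluster 5, cluster 2 and cluster 6 of PT-Cy (red) and in cluster 5 and the other CD8 cells of alloBMT (blue); points are means and lines are 1 SD over cells. For Tex1, PT-Cy cluster 5 is at -0.014, above cluster 6 at -0.036, and alloBMT cluster 5 is at -0.001, below the other alloBMT CD8 cells at 0.027.

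Markers of other cells were close to the level of the other PT-Cy CD8 cells. NK cell markers summed to 58.3 CPM in PT-Cy cluster 5 and 57.5 CPM in the other PT-Cy CD8 cells, B cell markers to 174 and 193 CPM, myeloid markers to 55.9 and 53.2 CPM, erythroid markers to 35.3 and 39.2 CPM and progenitor markers to 31.6 and 37.5 CPM, and each ratio's interval held 0. S100a8 had 0 counts in PT-Cy cluster 5, and Ncr1, Lyz2, Csf1r, Gata1, Alas2 and Cd34 had 1 or 2. Of the 48 counts at NK markers, 41 were at Tyrobp. Over the longer lists, where 5.12% of all loci were more open and 4.02% less open, 0 of 7 measured NK genes of 12 were 1.5-fold more open and 3 less open, with 321 CPM in PT-Cy cluster 5 against 366 CPM and 3 members at 0, and myeloid genes had 298 against 337 CPM, with 5 of 16 at 0. In alloBMT, where those shares were 12.1% and 18.8%, the NK list had 306 CPM in cluster 5 against 352 CPM in the other CD8 cells, with 5 of 9 measured members less open and Ncr1 and Klrb1c at 0. The myeloid list there had 404 against 317 CPM, with 4 of 10 measured members more open and 1 less open. B cell markers there had 121 CPM against 192 CPM (-0.67, -1.22 to -0.17), and the plasmacytoid dendritic cell list 445 CPM against 540 CPM, with 1 of 9 measured members more open and 5 less open. The part of these in the alloBMT values was not tested.

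Foxp3, the gene of the factor that defines regulatory T cells, a suppressive lineage that is mostly CD4, was more open in alloBMT cluster 5. It had 11 counts in 8 of 30 cells, or 41.5 CPM (20.7 to 74.3), against 70 counts in 67 of 1835 other alloBMT CD8 cells, or 4.28 CPM, a ratio of 3.28 (2.21 to 4.20), and 2.80 with TMM factors from all peaks. The share of cells with a count was 26.7% (12.3 to 45.9) in cluster 5 and 3.65% in the others, with median depths of 6259 and 7855. For scale, the CD4 cluster with the most Foxp3, cluster 4, had 30.9 CPM in alloBMT and 73.4 CPM in PT-Cy. A pair of Foxp3 peaks, at chrX:7583883-7584290 and chrX:7594909-7595462, chosen after their values were seen, held 8 of the 11 counts, in 7 of the 30 cells, against 5 counts in the 1835 others. In PT-Cy the same pair held 5 counts in the 189 cluster 5 cells (6.08 CPM, 1.97 to 14.2). It held 5 counts in the 323 other PT-Cy CD8 cells (2.18 CPM, 0.71 to 5.08) and 14 in the PT-Cy CD4 set (9.10 CPM).

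The regulatory list was summed over all 30 cells. Of its 16 members 7, Foxp3 among them, passed 1.5-fold upward and 2 downward in alloBMT cluster 5, where 12.1% and 18.8% of all loci were. The list median was 0.36 with total-count scaling and -0.12 with TMM factors from all peaks, which shifted these ratios by -0.48. TMM factors from peaks with at least 50 counts shifted them by -0.05, so the direction depended on which peaks set the factors. Ikzf2 had 88 counts (332 CPM) against 166 CPM in the other alloBMT CD8 cells (1.0, 0.68 to 1.30), Lrrc32, which presents latent TGF-beta, 52.8 CPM against 20.2 CPM (1.39, 0.50 to 2.15), and Tnfrsf18, the receptor GITR, 109 CPM against 66.2 CPM (0.72, 0.14 to 1.26). With TMM factors from all peaks Ikzf2 was at 0.52 (0.20 to 0.83) and Lrrc32 at 0.91 (0.02 to 1.68), and the interval of Tnfrsf18 held 0 (0.25, -0.34 to 0.78). Tnfrsf4, Icos and Gpr83 passed the fold with intervals that held 0, and Ikzf4 and Nrp1 were the 2 less open. Ccr8, a chemokine receptor of regulatory and skin-homing T cells, was at 60.4 CPM against 22.9 CPM in alloBMT (1.40, 0.58 to 2.12) and at 35.3 CPM against 20.5 CPM in PT-Cy (0.78, 0.06 to 1.48). Of 24 exhaustion genes 1, Ikzf2, was more open and 2, Pdcd1 and Cd244a, less open, with a median of -0.05 against -0.04 over all loci. Pdcd1 was at 117 CPM in alloBMT cluster 5 against 211 CPM in the others (-0.85, -1.41 to -0.34), and Havcr2 at 128 CPM against 100 CPM (0.36, -0.18 to 0.84).

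The lineage shares were recomputed without the cells that held a Foxp3 count. In alloBMT the remaining 22 cells had 47.3% of lineage counts on the CD4 side (44.8 to 49.8) and 274 CPM at the Cd8 region, and the 8 cells with a Foxp3 count had 58.9% (55.8 to 62.1) and 191 CPM, with a Cd8 region count in 6 of the 8. The 8 cells had a median of 12894 ATAC counts and the 22 cells one of 3392. Without the 8 the share lay between 29.9%, the highest of the other alloBMT CD8 clusters, and 48.9%, the lowest of the alloBMT CD4 clusters, which its interval held. In PT-Cy, 8 of 189 cluster 5 cells held a Foxp3 count (4.23%, against 4.33% of the other PT-Cy CD8 cells), 9.72 CPM in all, and the share without them was 41.2%. These 8 PT-Cy cells had 2 counts at the Cd8 region and 0 at Prf1, at a summed depth of 68363 counts.

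Inside cluster 5, PT-Cy was set against alloBMT. The cells of the 2 libraries also differed in quality, with a median of 56.3% of fragments in peaks in PT-Cy and 64.9% in alloBMT. Mitochondrial RNA was 6.57% and 3.31%, and the part of these differences in the values below was not tested. The comparison rests on 30 alloBMT cells, and of 3009 loci with at least 100 counts over both, 128 passed 1.5-fold as more open in PT-Cy (4.25%) and 106 as less open (3.52%). Here too the balance depended on the scaling, with 455 more open and 14 less open under TMM factors from all peaks, which shifted every ratio by 0.26, and 176 and 66 under TMM factors from peaks with at least 50 counts. Slc37a1, a sugar phosphate transporter, had 136 counts in PT-Cy (165 CPM) and 13 in alloBMT (49.0 CPM), a ratio of 1.75 (0.93 to 2.70). In the other CD8 cells it was at 171 CPM in PT-Cy and 173 CPM in alloBMT, so the low value was that of alloBMT cluster 5. The same held for Scimp, an adaptor protein (111 CPM in PT-Cy, 41.5 CPM in alloBMT, 1.41, and 137 and 103 CPM in the other CD8 cells), and for Bysl, a factor of ribosome assembly (123 and 49.0 CPM, 1.32, and 128 and 105 CPM).

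Tgfbr3, a coreceptor of TGF-beta, was at 113 CPM in PT-Cy and 37.7 CPM in alloBMT (1.58, 0.64 to 2.69), Rap1gap2, a brake on the RAP1 switch, at 213 and 86.8 CPM (1.29) and Zdhhc14, a palmitoyltransferase, at 169 and 75.5 CPM (1.16). Rgs10, a regulator of G protein signals, was the most secure of the less open loci, with 88.7 CPM in PT-Cy and 196 CPM in alloBMT (-1.14, -1.68 to -0.60). It stood at 106 CPM in the other PT-Cy CD8 cells and 98.6 CPM in the other alloBMT CD8 cells. Arap1 was at 101 and 189 CPM (-0.90), Sntb1, a syntrophin, at 148 and 260 CPM (-0.81), and Selenoi, a phospholipid enzyme, at 80.2 and 166 CPM (-1.05), as was a peak shared by Cyth2 and Kcnj14. For each of these the alloBMT value of cluster 5 lay above that of the other alloBMT CD8 cells.

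Runx3 was more open in PT-Cy cluster 5, with 262 counts (318 CPM) against 57 (215 CPM) in alloBMT cluster 5 (0.57, 0.15 to 1.01). As given above, Runx3 was level with the other CD8 cells in PT-Cy and below them in alloBMT. The low value was thus that of alloBMT cluster 5. Interferon response genes were split, with 4 of 18 more open and 4 less open, where 12.6% and 9.31% of all 12402 loci with at least 20 counts were. Of the effector genes 4 of 24 were more open and 0 less open (Tnf, Fasl, Ccl3 and Gzmm), with a median of 0.30, and of the stem and memory genes 5 of 24 were more open and 1, Il7r, less open, with a median of 0.22. Among these the interval left out 0 at Tnfsf8, a ligand of CD30 (70.5 CPM in PT-Cy and 30.2 CPM in alloBMT, 1.22, 0.15 to 2.50), and touched it at Fasl (53.5 and 22.6 CPM, 1.24, 0.00 to 2.76). In the other CD8 cells Fasl was at 63.6 CPM in PT-Cy and 62.5 CPM in alloBMT, so here too alloBMT cluster 5 held the low value. Tox was at 462 and 468 CPM and Tcf7 at 140 and 117 CPM (0.26, -0.33 to 0.88). Among 5394 peaks that held 50 counts or more, PT-Cy was 2-fold or more above alloBMT at 99 (1.84%) and below it at 46 (0.853%).

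Short motifs were counted in the RefSeq promoters of loci that passed 1.5-fold between cluster 5 and the other PT-Cy CD8 cells, on either strand. Promoters were found for 75 of the 88 more open loci and 165 of the 195 less open. RUNX letters were in 10.7% of the more open and 13.3% of the less open, against 11.5% of all 9793 measured, and ETS letters in 14.7% and 23.6%, against 20% of all. KLF letters (CCACCC) were in 46.7% and 38.8%, against 37.3%, and TCF/LEF letters in 12% and 12.1%, against 10.5%. STAT letters (TTCNNNGAA) were in 6 of the 75 and 2 of the 165, against 6.16% of all. AP-1 letters (TGANTCA) were in 0 of the 75 and 5 of the 165, against 4.15% of all, and E2F letters (CGCCAAA) in 0 and 9, against 2.83%. The other motifs searched were T-box, NFAT (TGGAAA) and NR4A (AAGGTCA), each within 4 points of the share over all.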

How the data were processed

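ATAC counts per peak and cell were used as the authors deposited them, with the authors' cell sets and cluster numbers. Per the submitters' processing notes, Cell Ranger ARC 1.0.1 and MACS2 were used. Those notes name a human build, whereas 64.9% of 21263 RefSeq mouse promoters (GRCm38.p6) overlapped a peak, against 9.49% after a shift of 100 kb, so GRCm38 was used for names and sequences. The deposited table per cell also gave the fraction of fragments in peaks, the percent of mitochondrial RNA, the TSS enrichment ratio and 4 scores, all computed by the authors by steps not given in the sources used here. Of its 58 columns, 38 were not used. The deposited cells had at least 1003 ATAC counts, at least 1017 RNA counts and at most 10% mitochondrial RNA. No doublet caller was run, and how the authors treated doublets is not stated in the labels.

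Counts were summed per set of cells over 148283 peaks and over 17684 loci. Loci with at least 100 counts were called at 1.5-fold, peaks with at least 50 counts at 2-fold, and members of 27 gene lists with at least 20 counts at 1.5-fold. Intervals and shares carry exact binomial 95% limits, which cover counting error only. Loci were named by their interval, taking against the other PT-Cy CD8 cells the 12 whose lower bound was highest and the 12 whose upper bound was lowest, and 6 each way between libraries. Left out of these were receptor segments, predicted and sex-linked genes, and genes of haemoglobin, ribosomes or the mitochondrial genome. Peaks were named likewise, with 10 and 5 each way, and up to 4 members of each list and a list of fixed genes were added. Some items that this rule names are not reported here. Foxp3, on the X chromosome, is a list member. Genes, lists and members were chosen with earlier results of these data known. The code was tested on simulated data. Alternatives scaled by TMM (edgeR 4.0.16) or by size factors (DESeq2 1.42.0), or changed the count minimum, the window or the weight of cells. Scripts ran in Python 3.11.15 with pandas 2.3.3 and scipy 1.17.1, and in R 4.3.3.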

Additional observations from a re-analysis of the deposited data

Results flagged for a closer look

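Rsad2, the interferon-induced antiviral enzyme viperin, went in opposite directions in the libraries. In PT-Cy it had 11 counts in cluster 5 against 63 in the other CD8 cells, a log2 ratio of -1.04 (-2.11 to -0.10). In alloBMT it had 14 counts in cluster 5 against 356 in the other CD8 cells, a ratio of 1.28 (0.39 to 2.04). The difference between these ratios was not tested.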

How the results depend on the processing

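No paired analysis was possible because each group had 1 library. The counts past a fold moved most, and the cause was not tested except where the alternative itself sets it (a lower or higher count minimum measures more or fewer features). For cluster 5 against the other PT-Cy CD8 cells, the 43 peaks more open and 162 less open became 13 and 434 with TMM factors, 12 and 449 with DESeq2 size factors, 862 and 1387 at 20 counts, 1 and 25 at 100 counts, and 12 and 100 with each cell counted once per peak. The 88 loci more open and 195 less open became 10 and 854 with TMM, 9 and 911 with DESeq2, 733 and 575 at 20 counts, 37 and 115 with each cell counted once, and 174 and 383 with every cell weighted equally. The loci more open became 143 with TMM from peaks of at least 50 counts and 42 with peaks at the promoter alone.

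Inside cluster 5, the 99 peaks more open and 46 less open in PT-Cy became 272 and 4 with TMM, 327 and 2 with DESeq2, 1120 and 502 at 20 counts, 1 and 1 at 100 counts, and 38 and 0 with each cell counted once, and the 46 became 25 with TMM from peaks of at least 50 counts. The 128 loci more open and 106 less open became 455 and 14 with TMM, 566 and 8 with DESeq2, 1562 and 1155 at 20 counts, 63 and 26 with each cell counted once, 17 and 33 at promoters alone, and 294 and 249 with every cell weighted equally. The 128 became 201 with peaks within 10 kb, and the 106 became 66 with TMM from peaks of at least 50 counts and 57 without the 5% deepest cells. The Tex1 difference between libraries was -0.0129 by means and -0.00792 by medians. With lineage peaks past 2-fold, the CD4 side took 46.9% in PT-Cy cluster 5 and 59.9% in alloBMT cluster 5. Paqr5 turned to -0.33 at its promoter. TMM from peaks of at least 50 counts, 2-fold lineage peaks and cells of at least 2000 ATAC counts were added after seeing the data. With 265055 counts in alloBMT cluster 5, most single loci there could not be told from the other CD8 cells.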
